A study of Mus musculus with 6 samples.

Results

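The 35 genes described here encode the enzymes of cholesterol synthesis from hydroxymethylglutaryl-CoA to cholesterol, the SREBP proteins and their control, sterol transfer proteins, and the enzymes that make, elongate and desaturate fatty acids. They were taken by name from a listed set, and all 35 were found among the 21959 genes of the deposited count table. RNA was sequenced from MPC, a mouse gastric adenocarcinoma line, and from MPC-PTX, a paclitaxel (PTX) resistant line raised from it over more than 30 cycles of the drug, with 3 libraries per line. The paper on these lines calls them MTC and MTC-R. Both lines carry the genotype CDH1-/-;Trp53-/-. They go back to stomach organoids of C57BL/6J mice with floxed Trp53 and Cdh1 and a tamoxifen-inducible Cre under Mist1, which were passed through a nude mouse. Each line was selected as 1 clone, so a difference between the lines is a difference between 2 clones. Both were grown in RPMI medium with fetal bovine serum, which itself supplies sterols and fatty acids. By the labels all 6 libraries belong to batch 1. Whether the replicates of a line came from separate cultures is not stated, so p-values measure only the spread between these libraries.

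Cells make cholesterol from acetyl-CoA through mevalonate, isoprenoids, squalene and lanosterol, and make palmitate from acetyl-CoA, malonyl-CoA and NADPH. Elongases and desaturases then turn palmitate and dietary fatty acids into longer and unsaturated chains. SREBP transcription factors, held in the endoplasmic reticulum by Scap and the Insig proteins when sterols are plentiful, move to the nucleus when sterols fall and act on many genes of both pathways, often next to NF-Y, which binds CCAAT.

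The promoters of 4 members are printed to show the CCAAT letters in genes that differed and in genes that did not. They are the 150 bases before the RefSeq start, 5′ to 3′ on the gene's strand, in build GRCm38.p6. Nsdhl (chrX:72918371-72918520, plus strand) and Sc5d (chr9:42264301-42264450, minus strand) were lower in MPC-PTX, and Fasn (chr11:120824548-120824697, minus strand) and Hmgcs1 (chr13:119690201-119690350, plus strand) did not pass the test. Capitals mark CCAAT or its reverse complement ATTGG and, in Hmgcs1, the letters TCACNCCAC of a sterol regulatory element.
Nsdhl: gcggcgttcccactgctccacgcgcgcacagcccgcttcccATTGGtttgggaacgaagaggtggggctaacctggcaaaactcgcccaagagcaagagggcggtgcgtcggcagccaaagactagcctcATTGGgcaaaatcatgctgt
Sc5d: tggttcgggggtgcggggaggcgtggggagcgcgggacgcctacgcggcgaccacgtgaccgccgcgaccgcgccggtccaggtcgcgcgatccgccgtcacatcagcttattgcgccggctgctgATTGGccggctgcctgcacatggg
Fasn: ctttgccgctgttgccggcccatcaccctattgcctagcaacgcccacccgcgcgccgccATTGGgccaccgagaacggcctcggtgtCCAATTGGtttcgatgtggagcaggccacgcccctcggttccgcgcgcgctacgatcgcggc
Hmgcs1: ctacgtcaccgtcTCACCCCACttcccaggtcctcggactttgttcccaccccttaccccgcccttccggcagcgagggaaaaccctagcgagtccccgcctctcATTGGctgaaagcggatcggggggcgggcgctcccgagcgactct

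In Fasn, CCAAT and ATTGG overlap in 1 run of letters. RefSeq promoters, reaching from 250 bases before to 50 bases after the start, matched 27 of the 35 members, and each motif was searched on both strands. The NF-Y letters CCAAT stood in 23 of the 27 (85.2%), against 41.1% of the promoters of 27025 genes and 43.5% of those of 9431 tested genes. It stood in 7 of the 9 matched members that passed the test between the lines and in 16 of the 18 that did not. The Sp1 letters GGGCGG stood in 20 members (74.1%), against 69.6% of tested genes. The E-box CACGTG stood in 7 members (25.9%), against 11.8% of tested genes. TCACNCCAC was found in 1 member, Hmgcs1, and in 1.38% of tested genes. A match describes the letters only.

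Library totals ran from 16574580 to 23148182 counts. MPC libraries varied more among themselves than MPC-PTX libraries, with a biological coefficient of variation of 17.9% against 3.01%. The log2 ratio of MPC replicate 3 to MPC replicate 1 correlated with GC content across 11776 genes (Spearman's rho of -0.56), against -0.31 for the same pair of MPC-PTX libraries. Their mean absolute deviations from the line's mean over all genes were 0.196 and 0.172 on the log2 scale, above the 0.101 of MPC replicate 2. All 7 epithelial keratin and junction markers were detected, and all were lower in MPC-PTX, with summed levels of 9400 to 10888 CPM (counts scaled to a common library size by TMM) in MPC and 5678 to 5866 in MPC-PTX. Of 9 gastric markers, 7 were under 10 counts in every library and 4 of these (Tff1, Tff2, Gkn2 and Pgc) were at 0, and the sum, carried by Ctse and Anxa10, was 322 to 460 CPM in MPC and 1.58 to 2.26 in MPC-PTX. The 2 lipid-rich cell types that could add such transcripts were at trace level, with 5 adipocyte markers summing to 1.59 to 1.80 CPM in MPC and 0.555 to 1.19 in MPC-PTX, and 4 hepatocyte markers to at most 0.928 CPM. Fibroblast, leukocyte and endothelial markers summed to at most 10.9, 12.8 and 4.73 CPM in any library, and 5 proliferation markers to 1597 to 1995 CPM in MPC and 1610 to 1666 in MPC-PTX.

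The sterol and fatty acid synthesis genes did not move as a block. All 35 passed the filter on low counts, and at an adjusted p below 0.05 (edgeR's quasi-likelihood test, Benjamini-Hochberg over 11795 genes) 9 were higher in MPC-PTX and 4 were lower. These are 25.7% and 11.4% of the members, against 14.1% and 15.6% of all tested genes. With an absolute log2 fold change above 1 as well, 1 member was higher (Scd1) and 2 were lower (Me1 and Gramd1b), against 3.54% and 4.2% of all tested genes. Every MPC-PTX library lay above every MPC library for 13 members and below for 6, against 24.2% and 22.7% of all tested genes. The counts moved with single libraries, as did those of all tested genes. Without MPC replicate 3, 10 members were higher and 7 lower, beside 3020 and 3227 of the 11896 genes then tested. Without MPC replicate 2, or without any 1 of the MPC-PTX replicates, 6 or 7 members were higher and 2 lower. In those fits 803 to 934 of all tested genes were higher and 1077 to 1222 lower, of 11905 to 11985 tested. The members' median log2 fold change was 0.11, beside 0.04 over all tested genes. Without MPC replicate 3 the members' median was 0.04, beside -0.00081 over all genes then tested. Summed over the members, the level was 6240, 5854 and 5730 CPM in the MPC libraries and 6758, 6702 and 6661 CPM in the MPC-PTX libraries, a sum led by Scd2. In RNA of whole cultures, fewer cells that express a gene and less RNA per cell cannot be told apart.

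**Figure D1:**
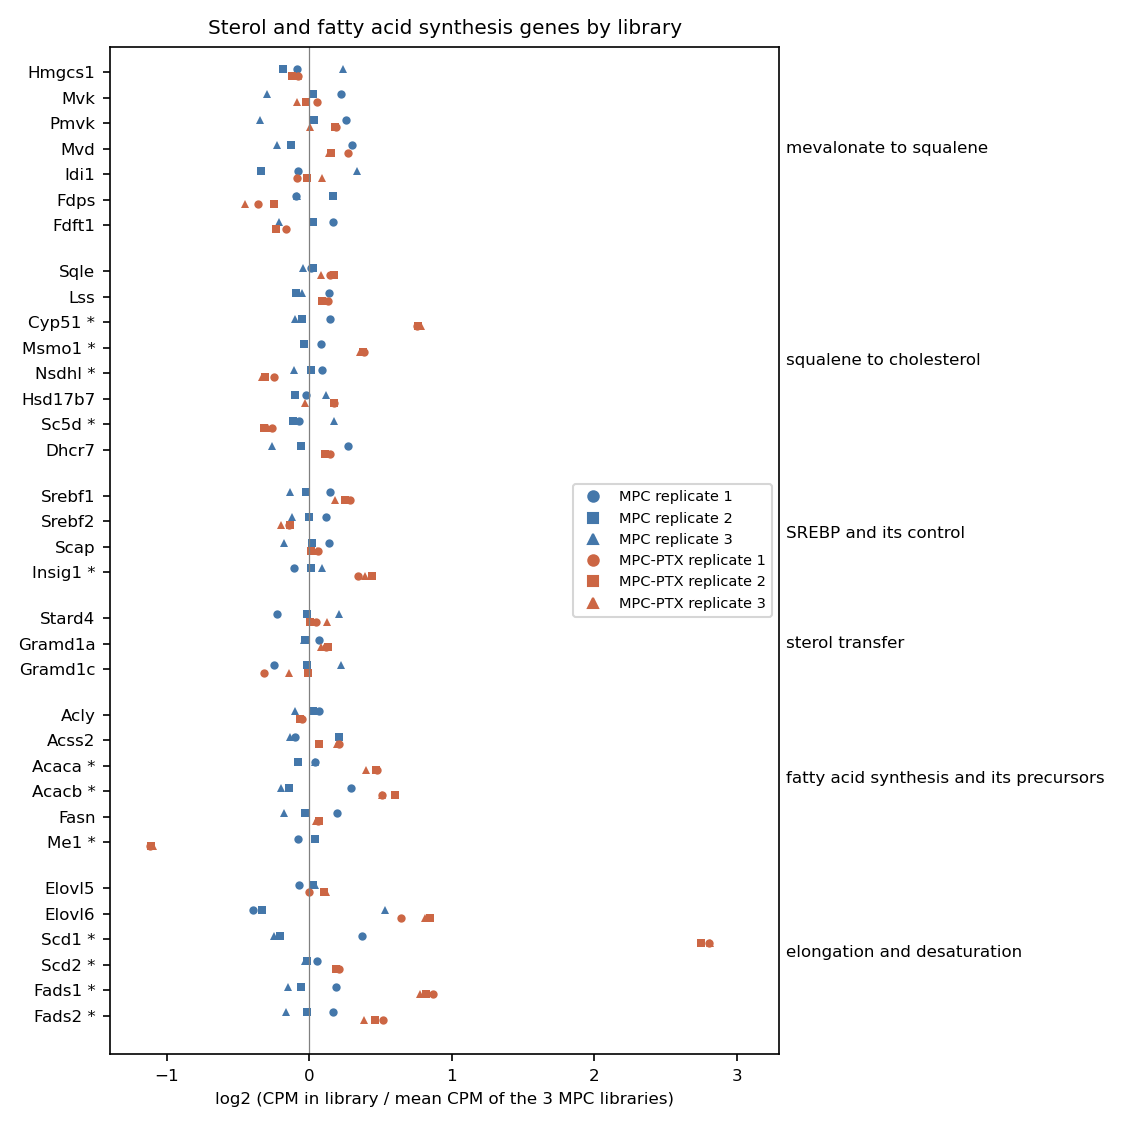
Level of 34 members in each of the 6 libraries, as the log2 of CPM over the mean of the 3 MPC libraries (x axis), grouped by role, with an asterisk where the adjusted p was below 0.05. Gramd1b, near 0 in MPC-PTX, is left out. Scd1 stands farthest to the right and Me1 farthest to the left, while the mevalonate genes scatter about 0.

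None of the 7 genes from hydroxymethylglutaryl-CoA to squalene passed the test. Their log2 fold changes ran from -0.34 (Fdps, which joins isoprene units to farnesyl diphosphate) to 0.19 (Mvd, which decarboxylates mevalonate diphosphate), with a median of -0.02 and 95% intervals that together span -0.69 to 0.53. Hmgcs1, which makes hydroxymethylglutaryl-CoA, was at 72.5 ± 11.5 CPM in MPC and 67.8 ± 1.03 in MPC-PTX (SD, n = 3), a log2 fold change of -0.10 with an interval of -0.36 to 0.17. Mvk and Idi1, mevalonate kinase and the isomerase of isopentenyl diphosphate, had values of -0.02 and -0.01, and Pmvk, phosphomevalonate kinase, had 0.13. Fdft1, squalene synthase, had -0.21 (adjusted p = 0.157). Without MPC replicate 3 it was -0.36 with an adjusted p of 0.000541. Fdps was counted at only 4.54 ± 0.49 CPM in MPC and 3.57 ± 0.25 in MPC-PTX. It has processed copies elsewhere in the genome, and how reads that fit several places were counted is not given in the sources used here, so its level is uncertain.

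The 8 genes from squalene to cholesterol split, with 2 higher and 2 lower. These are 25% each, beside 14.1% and 15.6% of all tested genes. Cyp51, the lanosterol demethylase, was at 269, 235 and 228 CPM in the MPC libraries and at 412, 413 and 421 in the MPC-PTX libraries. The groups were well apart, and the log2 fold change was 0.77 (SE 0.08, adjusted p = 0.000452), 1.70-fold with a 95% interval of 1.51 to 1.92. Msmo1, the oxidase of the next demethylation, was at 124, 114 and 114 CPM in MPC and at 153, 152 and 150 in MPC-PTX. Here too no libraries overlapped, and the log2 fold change was 0.37 (SE 0.06, adjusted p = 0.00442). Nsdhl, the decarboxylating dehydrogenase that follows Msmo1 in the same demethylation, was at 58.9, 55.7 and 51.5 CPM in MPC and at 46.6, 44.6 and 44.0 in MPC-PTX. It fell by 0.30 on the log2 scale (SE 0.08, adjusted p = 0.0273), and the call was lost without MPC replicate 2 or any of the MPC-PTX replicates, at adjusted p-values of 0.0844 to 0.120. In the reported fit, successive enzymes of 1 reaction sequence differed in opposite directions. Sc5d, a late sterol desaturase, was at 73.6, 71.4 and 87.3 CPM in MPC and at 64.5, 62.0 and 63.2 in MPC-PTX. The MPC-PTX libraries were all below and close together, and the log2 fold change was -0.29 (SE 0.09, adjusted p = 0.0480). Leaving out the same libraries in turn ended this call as well, at up to 0.168, as did scaling by library size only (0.0740) and the replicate block (0.0566). The other 4 did not pass, with log2 fold changes of 0.11 to 0.13. They were Sqle, the squalene epoxidase, Lss, the lanosterol synthase, Hsd17b7, a sterol ketone reductase, and Dhcr7, the last reductase. Every MPC-PTX library was above every MPC library for Sqle, whose adjusted p was 0.158.

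Both sterol genes that rose lie among neighbours that were also higher. Cyp51 starts at 4.10 Mb of chromosome 5 in GRCm38, 4.56 Mb from Abcb1a, the gene of a drug efflux pump. Of 12 tested genes within 1 Mb of Cyp51 all 12 had a positive log2 fold change and 10 passed the test, with a median of 1.29. Within 5 Mb, 28 of 29 were positive, 24 passed as higher and 1 as lower, with a median of 1.23, so Cyp51, at 0.77, changed less than the median of its neighbours. Around Msmo1 on chromosome 8, 23 of 28 genes within 5 Mb were positive with a median of 0.39, close to its own 0.37, and the median over chromosome 8 was 0.26. The part of position in these differences was not tested. Nsdhl and Sc5d lay among genes with medians of -0.10 and -0.08 within 5 Mb.

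**Figure D2:**
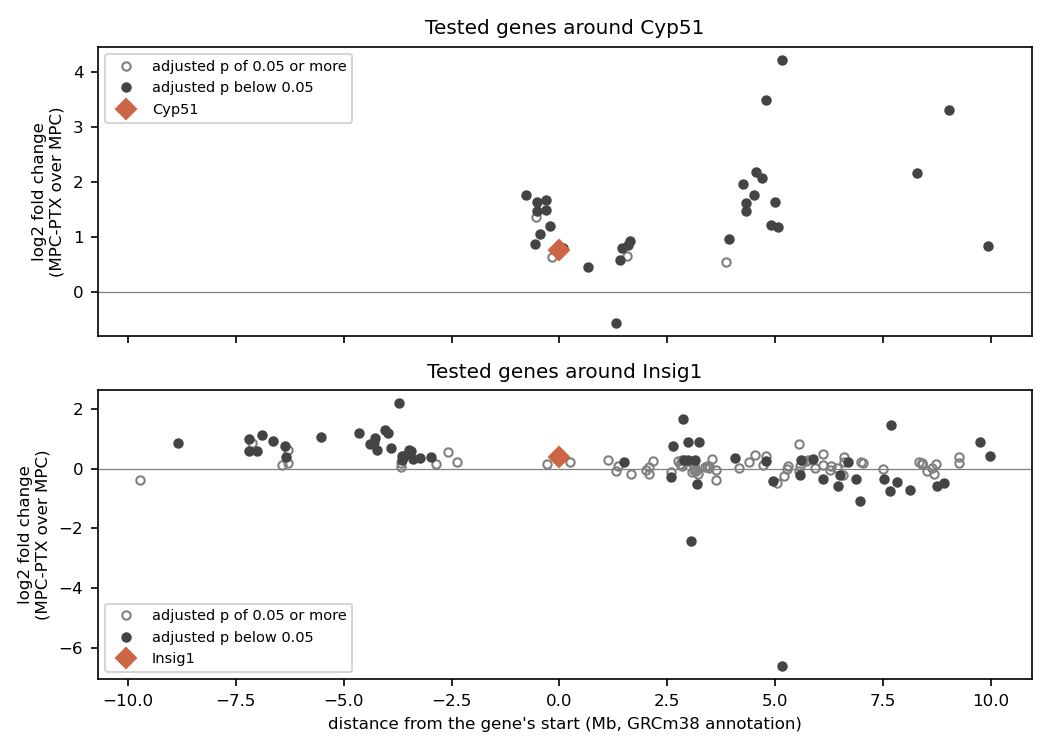
Log2 fold change of each tested gene (y axis) against its distance from the start of Cyp51 (upper panel) or Insig1 (lower panel), in Mb of the GRCm38 annotation. Filled points passed the test and the diamond is the named gene. Cyp51 sits among mostly higher genes, 28 of 29 within 5 Mb being positive, and Insig1 lies between mostly higher genes on the left and a mixture on the right.

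Of the 4 members that encode SREBP proteins, Scap and Insig1, Insig1 passed the test and 3 did not. Insig2, the paralog of Insig1 and no member, was also higher (log2 fold change 0.42, adjusted p = 0.0138). Insig1, which retains Scap and SREBP in the endoplasmic reticulum and is itself an SREBP target, was at 44.9, 48.9 and 51.7 CPM in MPC and at 61.6, 65.9 and 63.5 in MPC-PTX. The log2 fold change was 0.39 (SE 0.08, adjusted p = 0.00944). It starts at 28.1 Mb of chromosome 5, and 59 of 75 tested genes within 5 Mb were positive with a median of 0.24. Srebf1, whose products act mainly on fatty acid genes, was at 176, 157 and 145 CPM in MPC and at 194, 190 and 181 in MPC-PTX. The groups did not overlap, but the difference of 0.24 (SE 0.08) missed the threshold at an adjusted p of 0.0647. It passed in 5 of 14 other settings, among them library size only (adjusted p = 0.0310), the GC and length correction (0.00446) and the fit without MPC replicate 1 (log2 fold change 0.32, adjusted p = 0.00895). Srebf2, whose product acts mainly on cholesterol genes, was at 318, 292 and 270 CPM in MPC and at 265, 267 and 256 in MPC-PTX. Its log2 fold change of -0.16 (SE 0.07, adjusted p = 0.146) became -0.27 without MPC replicate 3, with an adjusted p of 0.000971. Per kb of exon, Srebf1 made up 41.4%, 40.6% and 40.8% of the 2 genes' summed level in MPC and 48.3%, 47.5% and 47.4% in MPC-PTX. The log2 ratio of Srebf1 to Srebf2 differed by 0.40, with no overlap between lines (exact two-sided permutation p = 0.1, the smallest that 3 libraries against 3 allow, and 0.125 adjusted over 5 gene pairs). Scap, the escort protein of SREBP, was at 62.2 ± 6.73 CPM in MPC and 64.0 ± 1.21 in MPC-PTX (SD, n = 3), a difference of 0.04 with an interval of -0.17 to 0.25.

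Among the sterol transfer genes, Gramd1b was nearly absent from MPC-PTX. The Gramd1 (Aster) proteins carry cholesterol from the plasma membrane to the endoplasmic reticulum. Gramd1b had 148, 222 and 250 counts in the MPC libraries and 1, 0 and 1 in the MPC-PTX libraries. Relative to library size its level was 319-fold lower in MPC-PTX, with an exact binomial 95% interval of 88.0 to 2642 that covers counting error only (adjusted p = 3.47e-05). Its paralogs Gramd1a and Gramd1c had log2 fold changes of 0.11 and -0.16, and Stard4, a soluble sterol carrier, had 0.06. None of these 3 passed, and their 95% intervals together span -0.53 to 0.33. Per kb of exon, Gramd1b in MPC (1.04 CPM per kb) was below Gramd1a (4.34) and Gramd1c (1.36), the lowest of the 3 paralogs there. The 48 tested genes within 5 Mb of Gramd1b on chromosome 9 had a median of -0.10.

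Of the genes of fatty acid synthesis and its precursors, both acetyl-CoA carboxylases were higher and malic enzyme was lower. Acaca, the cytosolic carboxylase that makes malonyl-CoA for synthesis, was at 109, 100 and 109 CPM in MPC and at 148, 147 and 140 in MPC-PTX. The libraries did not overlap, and the log2 fold change was 0.45 (SE 0.06, adjusted p = 0.00246). With library offsets fitted to GC content and the length of the longest transcript it was 0.24 (adjusted p = 0.194). Of 14 settings, only this 1 ended the call. With the same offsets and a replicate block the log2 fold change was 0.25 (adjusted p = 0.0464). Acacb, the carboxylase whose malonyl-CoA restrains mitochondrial fatty acid import, was at 27.3, 20.2 and 19.5 CPM in MPC and at 31.7, 33.8 and 31.7 in MPC-PTX. Its log2 fold change was 0.54 (SE 0.14, adjusted p = 0.0237), and the call was lost without MPC replicate 2 or any of the MPC-PTX replicates, at adjusted p-values of up to 0.0964. The ratio of Acaca to Acacb differed by -0.11 on the log2 scale (exact permutation p = 0.6).

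Me1, the cytosolic malic enzyme that supplies NADPH, was at 301, 327 and 328 CPM in MPC and at 147, 147 and 149 in MPC-PTX. Every MPC-PTX library was under every MPC library by a wide gap, and the level was 0.463-fold with an interval of 0.420 to 0.510. The log2 fold change was -1.11 (SE 0.06, adjusted p = 3.54e-05). Me2, the mitochondrial paralog and no member, rose by 0.42 on the log2 scale (SE 0.06, adjusted p = 0.00339), so that per kb of exon Me1 went from 91.4%, 92.2% and 92.3% of their sum to 80.03%, 80.2% and 79.6%. Within 5 Mb of Me1 the median was -0.13. The remaining 3 genes did not pass. Acly, which splits citrate into acetyl-CoA, was at 524 ± 31.3 CPM in MPC and 502 ± 3.25 in MPC-PTX. Fasn, which makes palmitate, was at 428 ± 56.4 and 446 ± 3.14 CPM (SD, n = 3), a log2 fold change of 0.06 with an interval of -0.17 to 0.28. Acss2, which activates acetate, was at 9.55 ± 1.29 and 10.7 ± 0.56 CPM. The median of the 6 genes was 0.11 and turned to -0.02 without MPC replicate 3.

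All 6 elongase and desaturase members had a positive log2 fold change, as did 6511 of all 11795 tested genes. The median of the 6 was 0.61, and 4 passed as higher, 66.7% beside 14.1% of all tested genes. The 4 that passed are the desaturases. The 11 other tested genes of elongation and desaturation, which are no members, had a median of 0.11, with 3 higher and 1 lower. These are 27.3% and 9.09%, beside 14.1% and 15.6% of all tested genes. Among the 11, 5 were negative, including Elovl7, an elongase (-0.45, adjusted p = 0.0241), and Fads3, a desaturase family gene (-0.26, adjusted p = 0.175). Scd1, which makes oleate and palmitoleate, was at 37.4, 25.1 and 24.3 CPM in MPC and at 202, 194 and 203 in MPC-PTX. This was the largest rise among the members, 6.92-fold with a 95% interval of 5.24 to 9.14, and a log2 fold change of 2.79 (SE 0.17, adjusted p = 8.31e-05). Scd2, its neighbour 0.114 Mb away on chromosome 19, was at 2440, 2322 and 2302 CPM in MPC and at 2723, 2685 and 2692 in MPC-PTX. The groups did not overlap, but the log2 fold change of 0.20 (SE 0.06, adjusted p = 0.0475) passed narrowly and did not pass in 11 of 14 other settings, among them DESeq2 (adjusted p = 0.107) and the fits without MPC replicate 2 or any of the MPC-PTX replicates. Per kb of exon Scd2 was the highest of all members, at 431 CPM per kb in MPC and 494 in MPC-PTX, and Scd1, at 5.91 and 40.9, stayed well below it. Scd1 made up 1.68%, 1.19% and 1.17% of the summed level of the 2 genes in MPC and 7.67%, 7.47% and 7.78% in MPC-PTX. The log2 ratio differed by 2.62, again with no overlap (exact two-sided permutation p = 0.1, adjusted 0.125). These genes are alike in sequence, and how shared reads were counted is not given in the sources used here.

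**Figure D3:**
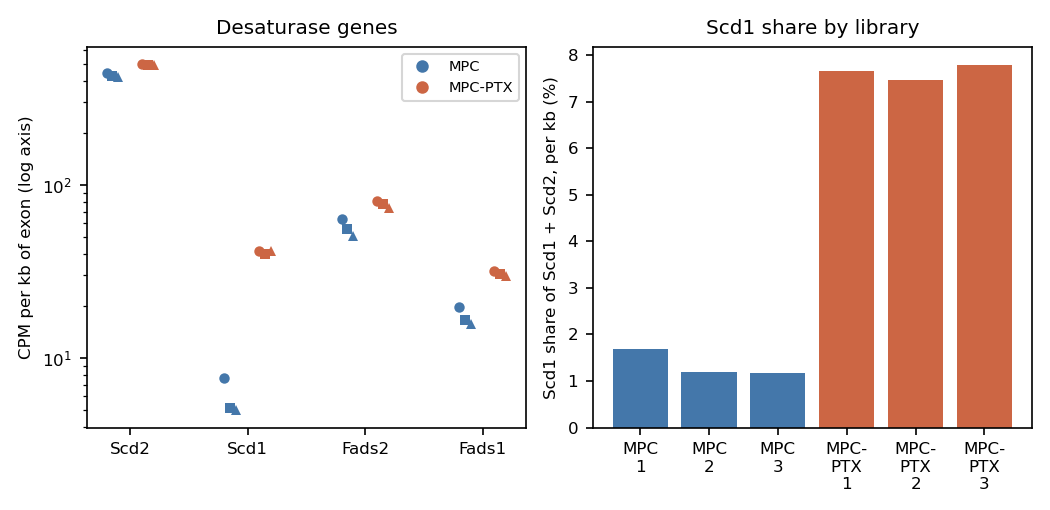
Left, the level of 4 desaturase genes in each library as CPM per kb of exon (log axis), with MPC and MPC-PTX side by side and the marker shape giving the replicate. Right, the share of Scd1 in the summed level of Scd1 and Scd2 in each library, as a percent. Scd1 rose from 1.17% to 1.68% of the sum in MPC to 7.47% to 7.78% in MPC-PTX, while Scd2 stayed the highest gene.

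Fads1 and Fads2 carry out the desaturation steps on the way to long polyunsaturated fatty acids. Fads1 was at 95.2, 80.01 and 75.4 CPM in MPC and at 152, 148 and 143 in MPC-PTX, a log2 fold change of 0.82 (SE 0.10, adjusted p = 0.000945). Fads2 was at 208, 183 and 166 CPM in MPC and at 266, 256 and 242 in MPC-PTX. Its log2 fold change was 0.45 (SE 0.09, adjusted p = 0.00952). In both, every MPC-PTX library lay above every MPC library. They start 0.081 Mb apart on chromosome 19, in a region where the tested genes within 5 Mb had a median of -0.08. For Scd1 the corresponding median was 0.04. Elovl6, which elongates palmitate, was at 43.7, 45.6 and 82.8 CPM in MPC and at 89.4, 103 and 101 in MPC-PTX. MPC replicate 3 was far above the other MPC libraries, and the log2 fold change of 0.77 (SE 0.25) missed the threshold at an adjusted p of 0.0562. Without that library it was 1.08 with an adjusted p of 5.11e-06. Elovl5, which elongates polyunsaturated chains, was at 141 ± 5.81 CPM in MPC and 148 ± 6.76 in MPC-PTX (SD, n = 3), a difference of 0.07 with an interval of -0.08 to 0.23.

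Of 71 other genes of these pathways in the table, 61 passed the filter on low counts. Of these, 11 were higher and 8 lower in MPC-PTX, with a median log2 fold change of 0.03. These are 18.0% and 13.1%, near the 14.1% and 15.6% of all tested genes. Those with an absolute log2 fold change above 1 were Mlxipl, the carbohydrate-responsive activator of lipogenic genes (2.48), Fads6, a desaturase family gene (1.80), Soat2 (1.08), Mylip, the ligase that degrades lipoprotein receptors (-1.79), and Soat1 (-1.64). Mlxipl and Soat2 stayed at low levels, Mlxipl at 0.159, 0.464 and 0.288 CPM in MPC and at 1.67, 1.49 and 2.08 in MPC-PTX. Mylip was also low, at 1.22, 4.64 and 4.80 CPM in MPC and at 1.20, 1.08 and 0.772 in MPC-PTX. Its level in MPC replicate 1 was thus close to the MPC-PTX libraries. Soat1 and Soat2 both esterify cholesterol for storage. Soat1 was at 64.6, 81.0 and 89.4 CPM in MPC and at 26.9, 23.9 and 24.5 in MPC-PTX, and per kb its share of the 2 genes went from between 92.9% and 96.2% to between 73.8% and 76.0%. The calls of Mylip and Soat2 were lost in 4 and 3 of the fits that left out a library, at adjusted p-values of up to 0.131 and 0.0573.

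Of the 13 members that passed the test, 6 passed in every other setting in which they were fitted. These were Cyp51, Msmo1, Me1, Scd1 and Fads1 in 14 settings, and Gramd1b in the 13 in which it passed the filter. The other 7 lost the call in at least 1 setting. Insig1 lost it without MPC-PTX replicate 2 (adjusted p = 0.0572) and Fads2 without MPC-PTX replicate 1 (adjusted p = 0.0505). Nsdhl and Acacb lost it in 4 settings each, Sc5d in 6, Acaca in 1 and Scd2 in 11. No called member changed direction.

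**Figure D4:**
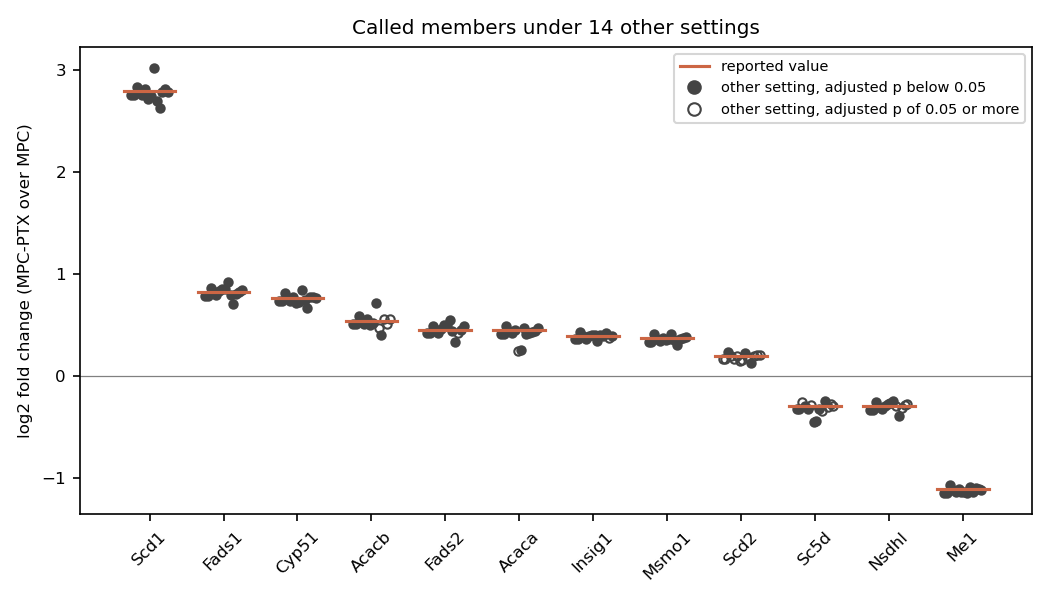
Log2 fold change of 12 called members (Gramd1b left out) in the reported fit (line) and in each of 14 other settings (points, filled where the adjusted p was below 0.05). Scd1, Fads1, Cyp51, Msmo1 and Me1 keep filled points throughout, while most points of Scd2 are open.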

How the data were processed

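RNA-seq was analysed in 3 MPC and 3 MPC-PTX libraries. Per the labels and the paper's methods, the authors selected poly-A RNA, cleaned reads with fastp 0.22.0, aligned them by HISAT2 and deposited raw counts per gene, neither normalized nor pooled. The genome build, annotation, counting tool and use of strand are not given in the sources used here. From these counts, genes were filtered with filterByExpr (minimum count 10) and fitted by line with edgeR 4.0.16 (TMM, robust glmQLFit, glmQLFTest, R 4.3.3), and p-values were adjusted over all 11795 tested genes. The authors' rule for a changed gene took the unadjusted p, below 0.05, and a log2 fold change beyond 1 in size. Here the fold limit was used together with the adjusted p. The standard error is the log2 fold change over the square root of the F statistic. CPM use TMM-scaled library sizes. Exon and transcript lengths, GC content and positions come from GENCODE M21 (GRCm38), which may not be the authors' build, and promoters from RefSeq.

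The members and gene lists were chosen with earlier results of these data known. Values in every library are given for members with an adjusted p below 0.05, and for the SREBP genes. Elovl6, Me2, Insig2, Elovl7 and Fads3 were named after their values were seen. Other pathway genes are named where they passed with an absolute log2 fold change above 1. The alternatives were DESeq2 1.42.0, its size factors in edgeR, library size only, no filter, at least 10 counts in each of the libraries, a replicate block, a GC and length correction (loess, span 0.3), both together, and each library left out in turn. Intervals are at 95%. Depth limits only low genes such as Gramd1b, where an interval covers counting error.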

Additional observations from a re-analysis of the deposited data

How the results depend on the processing

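No called member turned its direction in any of 14 settings. Leaving out 1 library at a time gave 6 to 12 members higher and 2 to 7 lower, 803 to 3020 of all tested genes higher and 1077 to 3227 lower, and 6 to 17 other pathway genes higher and 5 to 21 lower. The highest count of each except members higher came without MPC replicate 3. In the same fits the median log2 fold change ran from 0.039 to 0.14 over all members, from -0.15 to -0.012 from mevalonate to squalene, from 0.049 to 0.16 from squalene to cholesterol, from 0.018 to 0.22 for the SREBP genes, from -0.019 (without MPC replicate 3) to 0.16 for fatty acid synthesis, and from 0.51 to 0.62 for elongation and desaturation. The cause was not tested. The median from squalene to cholesterol was 0.052 with the GC and length correction and 0.058 with the replicate block added to it.

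Deviations of same-numbered libraries correlated at 0.23, -0.03 and 0.24 over 11795 genes. Libraries of unlike number were not compared, so these values do not settle whether replicate numbers pair the libraries. The replicate block gave 10 members higher and 3 lower, and 1787 of all tested genes higher and 1717 lower. With the block, Srebf1 and Elovl6 passed (adjusted p = 0.0447 and 0.0123) and Sc5d and Scd2 did not (0.0566 and 0.0829). With an unadjusted p beside the fold limit, 1 member was higher and 2 lower, as with the adjusted p, and 445 of all tested genes were higher and 512 lower, in place of 417 and 495. DESeq2 in place of edgeR called 9 members higher and 4 lower, beside 1456 and 1957 of all tested genes. Of the 22 members that did not pass, 7 did in at least 1 setting, Srebf1 and Elovl6 in 5 each.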

Other observations

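Genes that use or store fatty acids were listed after the members' values had been seen and before their own. Of 48, 36 passed the filter on low counts, 2 were higher and 6 lower in MPC-PTX, 5.56% and 16.7% of those tested, beside 14.1% and 15.6% of all tested genes. The median log2 fold change was 0.04, the same as all tested genes to that precision. Dgat2, which makes triglyceride, was at 19.3, 24.8 and 21.8 CPM in MPC and at 8.20, 7.21 and 8.08 in MPC-PTX (log2 fold change -1.49, SE 0.12, edgeR adjusted p = 0.000219). Mogat2, a monoacylglycerol acyltransferase, was lower at low levels (-2.16, adjusted p = 0.00243). The calls of Dgat2 and Mogat2 held in every other setting in which they were fitted. Pparg, a regulator of lipid storage, was at 28.9, 44.7 and 39.6 CPM in MPC and at 24.1, 23.4 and 23.9 in MPC-PTX (-0.67, SE 0.16, adjusted p = 0.0168), and lost the call without MPC replicate 2 or any of the MPC-PTX replicates (adjusted p of up to 0.0700). Genes of fatty acid oxidation that were lower differed by little, with -0.34 for Slc25a20, -0.24 for Hadh and -0.27 for Acaa1a, and each lost the call in at least 5 of the 14 settings, those without MPC replicate 2 or any of the MPC-PTX replicates among them. The 2 genes that were higher were Ppargc1b, a coactivator, at 0.531, 0.464 and 0.336 CPM in MPC and 2.01, 1.89 and 2.08 in MPC-PTX (2.16, adjusted p = 0.000968), and Slc27a1, a fatty acid transporter (0.57, adjusted p = 0.0111, and 0.0519 without MPC replicate 2).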
